A study of Homo sapiens with 3 samples.

Results

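The genes of riboflavin uptake and flavin synthesis are described here in the human liver cancer line HepG2 after etoposide, an inhibitor of topoisomerase II that causes DNA double-strand breaks. The members are the 3 riboflavin transporters GPR172B (now SLC52A1), GPR172A (now SLC52A2) and C20orf54 (now SLC52A3) and the 2 flavin synthesis genes RFK and FLAD1, taken by their names in the array design, which makes 5 of 27274 gene names. They were chosen with their values known, since the study had selected GPR172B from these same arrays, so their own values are a description. Control cells (0 μM, labelled untreated, while the study names its control DMSO, the solvent), cells given 10 μM etoposide (the low dose) and cells given 100 μM (the high dose) were each harvested after 30 h and profiled on 1 array, with no other difference between the groups in the labels. The study used the low dose to drive mainly senescence and the high dose to drive mainly apoptosis, and asked which genes separate them. With 1 array per condition no value has a replicate, no test between conditions exists, and effects of dose, culture and array cannot be told apart. In bulk RNA, fewer cells of a type and less RNA per cell cannot be told apart either.

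Riboflavin is a B vitamin that human cells cannot make. The SLC52 transporters carry it across the plasma membrane. In the cytosol riboflavin kinase (RFK) phosphorylates it to FMN, and FAD synthetase (FLAD1) joins FMN to an adenylate to give FAD. Flavoenzymes bind FMN or FAD and use them for redox reactions, among them amino acid oxidation, fatty acid oxidation and respiratory electron transfer. Liver is rich in such enzymes. GPR172A and GPR172B carry their older names because they were first classed as orphan G protein-coupled receptors.

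Each member was measured by 1 probe of 60 bases, spotted once on each array, and none of these spots was marked as an outlier. The probe of GPR172B (NM_017986) lies on the minus strand of hg18, chr17:4876829-4876888, that of C20orf54 (NM_033409) on the minus strand at chr20:689010-689069, that of RFK (NM_018339) on the minus strand at chr9:78190655-78190714 and that of FLAD1 (NM_025207) on the plus strand at chr1:153227754-153227813. The probe of GPR172A (NM_024531) is not shown. Exon and intron positions on this build were not used here. The probe sequences are shown because each member's values rest on a single probe. Capitals mark the longest exact run that the probe shares with any probe under another gene name, and the probes of GPR172B, C20orf54 and RFK are shown in part.
GPR172B, bases 1 to 30: TTCCCCCAACACAggaacgctcatggacac
C20orf54, bases 21 to 50: gatagaatcTTGGGCATCTTGgctttcgga
RFK, bases 2 to 31: ctcagaaaAACATCTAAAGCTGttggagaa
FLAD1, bases 1 to 60: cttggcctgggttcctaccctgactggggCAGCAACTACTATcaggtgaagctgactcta
The shared run was 13 bases for GPR172B, 12 for C20orf54, 14 for RFK and 13 for FLAD1, in a search of 34126 other probes. The transporters GPR172A and GPR172B are close paralogs, but their probes were unlike. They had at most 21 of 60 bases in common in any ungapped alignment and no exact run longer than 5 bases. Neither probe was compared with the transcript of the other gene, so reading of 1 paralog by the probe of the other was not tested.

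GPR172B, a riboflavin transporter known from the small intestine and placenta, was the member that differed most between conditions. Its processed signal, which is the spot intensity after background subtraction and before any scaling between arrays, was 22.0 without etoposide, 443 with the low dose and 177 with the high dose. Thus it was near the detection limit in control cells and well above it at either dose, highest at the low dose. After scaling each array to its 75th percentile, GPR172B exceeded its control value 19.3-fold at the low dose (log2 ratio 4.27, spot SD 0.31) and 9.57-fold at the high dose (log2 ratio 3.26, spot SD 0.32). The spot SD is the variation between spots of 1 array, read from probes of similar signal that are spotted 10 times, and it does not include variation between cultures.

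The size of these ratios depended on the dim control spot. The lowest signal called well above background on the control array was 19.5, and the control signal of GPR172B was brighter than only 0.592% of the probes so called. It was above all 153 negative control spots of that array, the brightest of which read 13.3. A control signal higher by 2 spot SD would have given 12.5-fold at the low dose and 6.23-fold at the high dose. A control at the lowest signal well above background would have given 21.8-fold and 10.8-fold. With normexp background correction, which adds an offset of 50 to every spot, the ratios were 5.75-fold and 3.33-fold. By qPCR, another measure, the study reports ratios over DMSO larger than those of the array at both doses.

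Between the doses GPR172B was 2.01-fold higher at 10 than at 100 μM (log2 ratio 1.01, spot SD 0.08). The interval of 2 spot SD ran from 1.79-fold to 2.26-fold, and thus included 2-fold. The ratio was 1.73-fold with normexp correction and 2.50-fold without scaling between arrays.

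**Figure D1:**
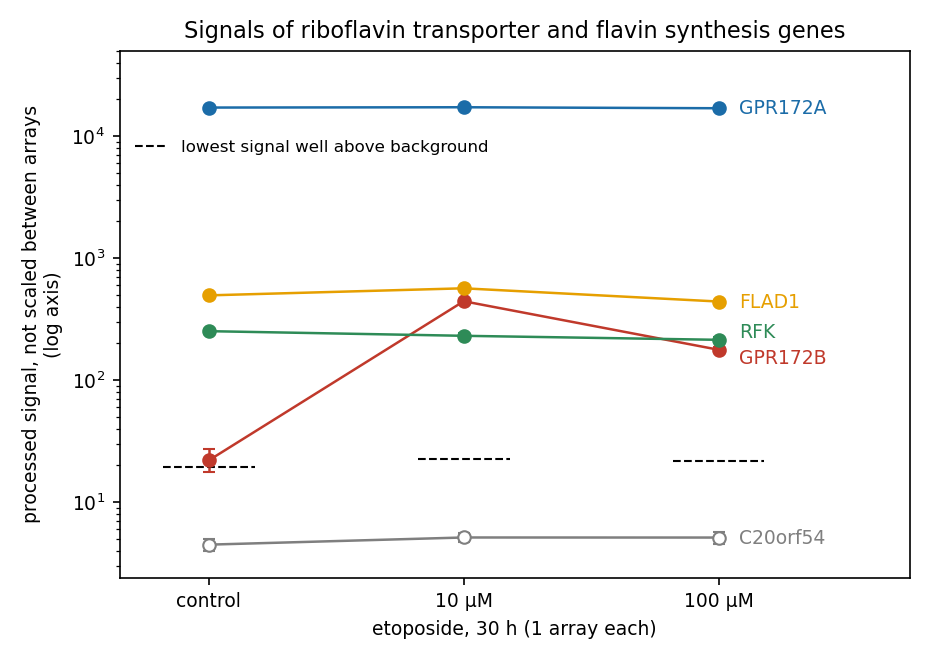
Processed signal of each member on a log axis in control cells and at 10 and 100 μM etoposide (30 h, 1 array each), with bars of 1 spot SD, open points for signals not well above background and dashes at the lowest signal well above background on each array. GPR172B went from 22.0 in control cells to 443 and 177, while the lines of the other members were nearly level; levels of different probes are not comparable with each other.

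GPR172A, a broadly expressed riboflavin transporter whose gene is on chromosome 8, gave a strong signal under every condition, namely 17120 without etoposide, 17219 with 10 μM and 16901 with 100 μM. These signals were nearly equal before scaling. After scaling the log2 ratio was -0.05 with 10 μM and 0.23 with 100 μM (spot SD 0.06 for each). Without scaling, the latter was -0.02, so its sign depended on the scaling.

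C20orf54, a riboflavin transporter of the intestine and testis, was not well above background on any array. Its signal read 4.49 without etoposide, 5.14 with 10 μM and 5.13 with 100 μM, within the range of the negative control spots, whose medians were 4.57, 5.15 and 5.08. No fold is given for it.

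RFK, the kinase that makes FMN, gave a signal of 252 without etoposide, 231 with 10 μM and 214 with 100 μM. The log2 ratio to control was -0.19 at the low dose (spot SD 0.09) and 0.01 at the high dose (spot SD 0.09), the latter -0.24 without scaling. FLAD1, the synthetase that makes FAD, gave a signal of 495 without etoposide, 566 with 10 μM and 441 with 100 μM. Its log2 ratio was 0.13 at the low dose (spot SD 0.07) and 0.08 at the high dose (spot SD 0.08), the latter -0.17 without scaling. Neither synthesis gene had an interval of 2 spot SD that reached 2-fold, since the bounds of RFK lay between -0.39 and 0.20 on the log2 scale over the 3 comparisons and those of FLAD1 between -0.09 and 0.28.

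Accordingly, 1 of the 4 members well above background passed 2-fold in each comparison, and it was GPR172B each time. Of all genes well above background on either array compared, 4.95% passed 2-fold in either direction between the low dose and control, 10.4% between the high dose and control and 7.58% between the doses. As GPR172B had been selected on these arrays, nothing is read from this count. GPR172A, RFK and FLAD1 stayed within 2-fold under all 12 other settings of scaling, background and filtering, with log2 ratios from -0.36 to 0.36. The dim-probe filters, the mean over probes and the deposited series table could not move members with 1 probe well above background throughout.

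**Figure D2:**
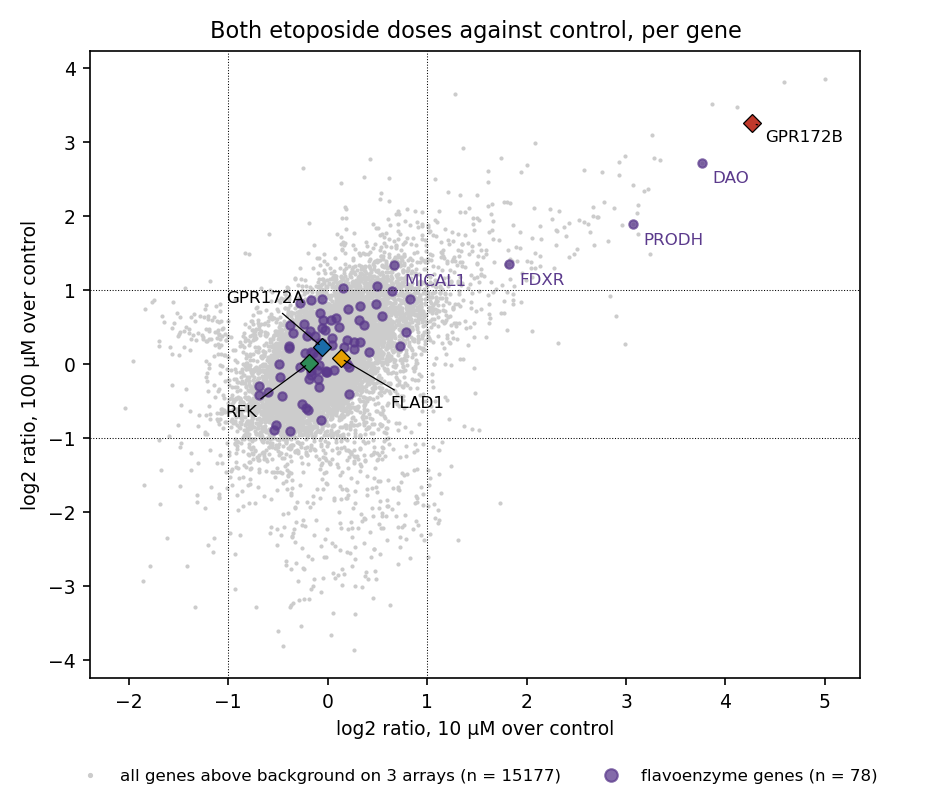
Log2 ratio to control at 10 μM (horizontal) against that at 100 μM (vertical) for the 15177 genes well above background on all arrays (grey), with 78 flavoenzyme genes in purple, the 4 measured members as diamonds and dotted lines at 2-fold. GPR172B lies at 4.27 and 3.26, with DAO and PRODH along the same direction, and the other members lie within the main body of genes.

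The genes whose pair of ratios to control lay nearest to that of GPR172B were looked for among 12045 genes that carry an NM identifier and passed the background call on every array. Likeness was the Euclidean distance between the log2 ratios at both doses, so it rests on 3 arrays only. SULF2, an extracellular sulfatase that trims heparan sulfate, was nearest at a distance of 0.03. It was followed by PDE4C, a cAMP phosphodiesterase (0.48), FXYD2, a regulatory subunit of the sodium pump (0.64), DAO, the FAD-dependent oxidase of D-amino acids (0.73), and PVRL4, a cell adhesion protein of the nectin family (0.95). These 5 were the genes within a distance of 1. Both ratios of GPR172B share its dim control spot (spot SD 0.31), so the distances and their order depend on that spot. With a control higher by 2 spot SD, GPR172B would be at 12.5-fold and 6.23-fold. That is beside 13.6-fold and 6.62-fold for DAO and 19.4-fold and 9.78-fold for SULF2. The distances were not computed under other settings. For reference, the p53 targets CDKN1A and MDM2 lay at 1.35 and 2.15, which ranked them 9 and 29 of the 12045 genes.

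The genes around GPR172B on chromosome 17 were looked at next. Within 100 kb of its probe on hg18 there were 14 probes of 13 other gene names, of which 11 passed the background call on every array. The log2 ratios of these 11 ranged from -0.32 to 0.52 at the low dose and from -0.36 to 0.76 at the high dose. None of these 11 passed 2-fold in any comparison. INCA1 was left out, with 26.3 in control cells, not well above background, and 33.0 and 50.4 at the doses, well above it. With its bound counted, INCA1 passes 2-fold over control at the high dose. ZFP3 was well above background in control cells only (22.3, then 12.7 and 12.7).

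Riboflavin and its products are also moved by SLC25A32, a mitochondrial carrier linked to FAD import, and ABCG2, an efflux pump that secretes riboflavin into milk. SLC25A32 gave a signal of 2123 without etoposide, 1861 with 10 μM and 1115 with 100 μM, and its log2 ratio to control was -0.25 and -0.68 (spot SD 0.06 and 0.07). It was thus lower at both doses, within 2-fold. ABCG2 was barely detected, with a signal of 25.3 in control cells that was well above background and of 18.5 and 22.3 at the doses that were not.

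The enzymes that use flavins were then examined with a list of 95 flavoenzyme genes chosen by function, of which 94 were on the array. The list holds DAO and PRODH, which the study selected on these arrays, so they are no independent evidence of its direction. At the low dose, 3 of the 79 genes well above background on either array were more than 2-fold higher than control (3.80%) and none was more than 2-fold lower, compared with 3.37% and 1.57% of all genes. The median log2 ratio of the 78 genes measured on both arrays was -0.06, beside -0.03 for all 15449 genes measured there. At the high dose 6 of 79 were more than 2-fold higher (7.59%) and none was lower, compared with 6.74% and 3.63% of all genes. The median was 0.24, beside 0.09 for all genes, and it was -0.01 without scaling, where the median of all genes was -0.16. Between the doses 2 were more than 2-fold higher and 2 more than 2-fold lower at the low dose (2.56% of 78 each), compared with 3.64% and 3.94% of all genes. In the groups of the list, the median at the high dose over control ran from 0.15 for redox and thiol enzymes to 0.35 for fatty acid oxidation, and at the low dose from -0.08 to 0.04, with signs that were not examined per group under other scalings. The shares of genes past 2-fold upward were thus near those of all genes in the comparisons with control.

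The flavoenzyme genes with the largest ratios were oxidases of amino acids and a mitochondrial reductase. DAO gave a signal of 67.9 without etoposide, 960 with 10 μM and 378 with 100 μM, which is 13.6-fold and 6.62-fold over control after scaling. PRODH, the mitochondrial proline dehydrogenase, went from 125 to 1098 and 390, 8.42-fold and 3.71-fold over control. A second, dimmer probe of PRODH, not well above background in control cells, gave at least 5.10-fold and at least 2.39-fold. Between the doses, DAO was 2.05-fold and PRODH 2.27-fold higher with 10 μM, and GPR172B, as given above, 2.01-fold. FDXR, the ferredoxin reductase of mitochondria and a known p53 target, gave a signal of 27768 without etoposide, 102361 with 10 μM and 59825 with 100 μM, 3.53-fold and 2.56-fold over control, and it differed by 1.38-fold between the doses. From its other experiments the study proposes direct regulation of DAO and PRODH by p53 too. For GPR172B it proposes an upregulation that depends on p53, and it reports p53 binding at DAO and PRODH. DAO and PRODH belong to the group of amino acid, amine and hydroxy acid oxidases, whose other 11 measured genes stayed within 2-fold in every comparison.

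The remaining genes past 2-fold over control did so at the high dose alone. MICAL1, an actin-oxidizing monooxygenase, was 2.53-fold higher at the high dose and 1.59-fold higher at the low dose. ACADVL, the very long chain acyl-CoA dehydrogenase, was 2.07-fold and AIFM2, a coenzyme Q oxidoreductase, 2.05-fold higher at the high dose, both within 2 spot SD of 2-fold, and the count of 6 became 4 without scaling. PCYOX1L was the fourth in the list at the low dose, at 1.77-fold.

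No flavoenzyme gene was below control by more than 2-fold. The lowest at the low dose were PRODH2, a hydroxyproline dehydrogenase, and MTRR, the methionine synthase reductase, both at 0.619 of control, then DPYD, which degrades pyrimidines (0.661), and TXNRD1, a thioredoxin reductase (0.688). The lowest at the high dose were DHODH, an enzyme of pyrimidine synthesis, at 0.536 of control, TXNRD1 (0.540), glutathione reductase GSR (0.567) and the sulfhydryl oxidase QSOX2 (0.594). Without scaling, 4 genes fell below the 2-fold line at the high dose in place of none.

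Between the doses, QSOX2 and the spermine oxidase SMOX followed PRODH and DAO, at 1.61-fold and 1.54-fold higher at the low dose. Among the lowest were FMO5, a flavin monooxygenase, at 0.521 of its high-dose value, and ACOX2, a peroxisomal oxidase of branched-chain acyl-CoA and bile acid intermediates, at 0.532. Both were thus higher at the high dose, within 2-fold. Without scaling, no flavoenzyme gene was more than 2-fold lower at the low than the high dose.

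**Figure D3:**
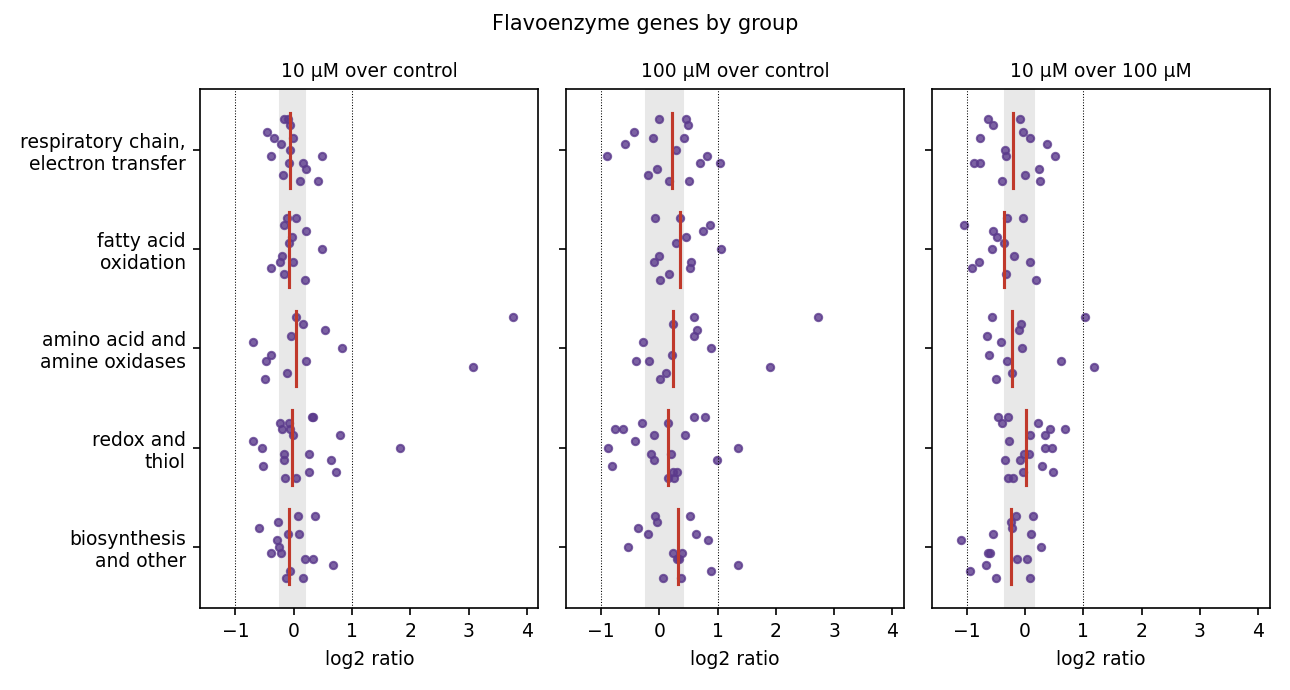
Log2 ratios of the flavoenzyme genes measured on both arrays, by group, in the 3 comparisons (1 array per condition); points are genes, red lines the medians of groups, the grey band the middle 50% of all genes and dotted lines 2-fold. Most genes lie within 2-fold, and DAO at 3.76 and PRODH at 3.07 stand apart in the comparison of 10 μM with control.

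Transporters of other vitamins and enzymes of other cofactors were compared with GPR172B. Of 26 such genes, 24 were well above background on either array. None passed 2-fold with 10 μM in either direction, compared with 3.37% of all genes higher and 1.57% lower. With 100 μM 2 were higher (8.33%) and 1 was lower (4.17%), shares near the 6.74% and 3.63% of all genes. The 6 vitamin transporters measured had log2 ratios from -0.27 to 0.15 at the low dose and from -0.62 to 0.93 at the high dose, beside 4.27 and 3.26 for GPR172B, and the difference was not tested.

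At the low dose the highest of these genes were NADSYN1, which completes NAD synthesis (1.92-fold), the pantothenate kinases PANK2 (1.58-fold) and PANK4 (1.46-fold), and NMNAT1, a nuclear enzyme of NAD synthesis (1.30-fold). The lowest were NMNAT3 (0.657 of control), the cobalamin enzyme MMAB (0.704), NAMPT of NAD salvage (0.827) and the thiamine transporter SLC19A2 (0.830). At the high dose NMNAT1 was 2.05-fold higher than control, the vitamin C transporter SLC23A1 1.91-fold, NADSYN1 1.78-fold and MMAB 1.68-fold. The ratio of NMNAT1 was within 2 spot SD of 2-fold, and a dimmer probe of this gene gave 1.93-fold. MTHFD1, an enzyme of folate metabolism, was the lowest at 0.398 of control, followed by NAMPT (0.650), the folate transporter SLC19A1 (0.651) and SLC19A2 (0.660).

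Between the doses MTHFD1 was 2.11-fold higher at the low dose, PANK2 1.70-fold, SLC19A1 1.49-fold and FPGS, which adds glutamates to folate, 1.33-fold. MMAB (0.420 of its high-dose value), SLC23A1 (0.582) and NMNAT1 (0.636) were among the lowest.

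Across the series, the 75th percentile was a signal of 514 on the control array, 536 on that of the low dose and 432 on that of the high dose, and between 19836 and 20150 of the 34127 probes were well above background. CDKN1A exceeded control 7.94-fold with 10 μM and 7.07-fold with 100 μM, and MDM2, by its brightest probe, 7.04-fold and 3.19-fold. Dimmer MDM2 probes gave 4.88-fold and 2.77-fold, and 3.57-fold and 2.20-fold. All 8 hepatocyte markers were well above background on every array. Of 7 markers of leukocytes, endothelial cells and fibroblasts, 4 were so on every array and 2 (COL1A1 and COL3A1) on none, and their summed signal was 1403 without etoposide, 1744 with 10 μM and 2495 with 100 μM. The rise of this sum lay in CD14, which hepatocytes also express, with 521, 1184 and 1847, since the sum of the others was 882, 561 and 648. PTPRC, a leukocyte marker, read by its brightest probe, was at 0.490 of control with 10 μM and 1.33-fold above control with 100 μM. Its other probes were not well above background on any array, with signals from 4.18 to 8.29. PDGFRB, a marker of fibroblasts and pericytes, was at 0.672 of control with 10 μM and not well above background with 100 μM, at least 3.58-fold lower than control. The part of other cell types in the ratios was not tested.

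**Figure D4:**
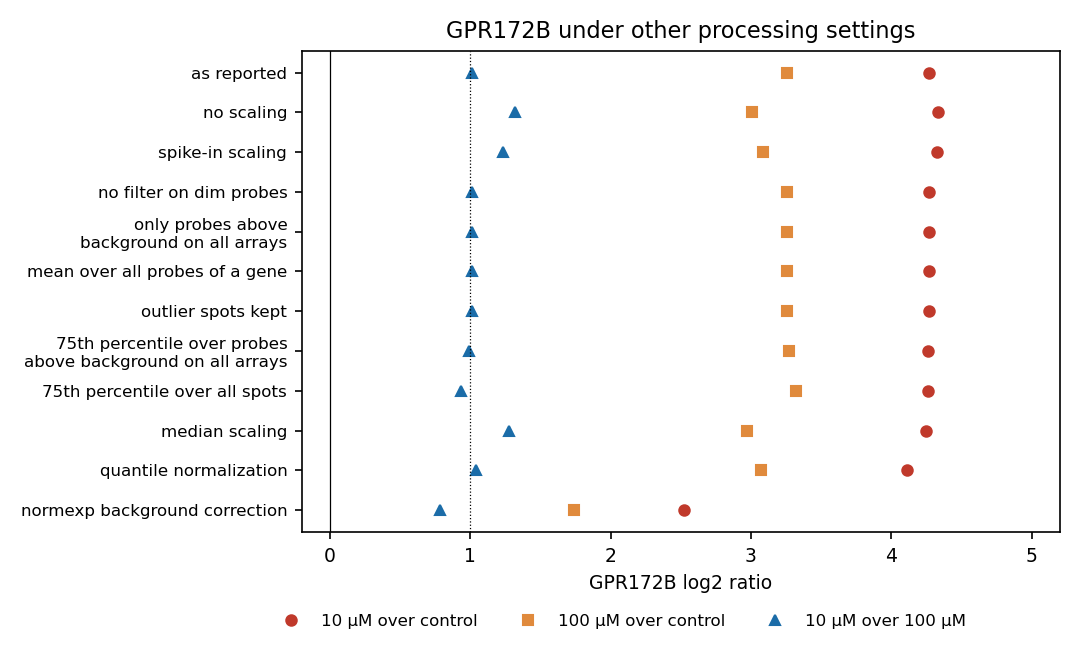
Log2 ratio of GPR172B in the 3 comparisons (symbols) under each setting of scaling, background correction and filtering, with a dotted line at 2-fold. The ratio to control stayed past 2-fold at both doses in every setting and was smallest with normexp correction, at 2.52 and 1.74, while the ratio between doses lay from 0.79 to 1.32, on both sides of the line.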

How the data were processed

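Cy3-labeled amplified RNA of each condition was read on 1 Agilent array of 1 color. The authors deposited the scanner text file of each array, made by Agilent Feature Extraction 10.7.3.1, which gives a background-subtracted and detrended intensity for every spot. The deposited series table held the same intensity (44495 of 44495 spots on each array equal within 0.01%), with no scaling between arrays. Depth is not defined for arrays, and their number limits the precision.

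From the processed intensity, spots marked as outliers were left out, log2 values were averaged over the spots of a probe, and the 75th percentile over probes was subtracted on each array. The brightest probe stood for a gene. A dim signal was raised to the lowest one well above background on its array, and its ratio is then a bound. The members and lists were chosen with earlier results of these data known. Named genes are the members, DAO, PRODH, SLC25A32, ABCG2, CDKN1A, MDM2, the 4 highest and 4 lowest of each list and the 5 nearest to GPR172B in pattern. ACADVL, AIFM2, CD14, PTPRC, PDGFRB, COL1A1 and COL3A1 were named after their values were seen, and some genes that the rule names are not reported here. Genes carry the array design's names. The spot SD at a signal is the median over the 50 repeated probes nearest to it. The steps were checked on simulated arrays. The genes changed there were brighter than the control spot of GPR172B and changed by well over 2-fold. Changes from a dim signal or near 2-fold were thus not checked. Python 3.11.15, pandas 2.3.3, numpy 2.4.6, R 4.3.3 and limma 3.58.1 were used. Other scalings, normexp (offset 50), no filter or a stricter one on dim probes, outlier spots kept, the mean over probes, the series table and thresholds of 1.5-fold and 3-fold were tried.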

Additional observations from a re-analysis of the deposited data

How the results depend on the processing

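No paired analysis was possible because there is 1 array for each condition, and for the same reason no replicate could be left out. The 12 alternatives were not equally informative. The dim-probe filters, the mean over probes and the series table could not move a member with 1 probe well above background throughout. GPR172B passed 2-fold over control at both doses under all 12 alternatives (5.75-fold to 20.1-fold and 3.33-fold to 10.0-fold). Between doses it passed under 9 of 12, and 0 of the 5 members passed with the 75th percentile over all spots (0.94 on the log2 scale), over probes that every array called well above background (0.99) or with normexp correction (0.79), and 0 at 3-fold. The cause was not tested.

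For flavoenzyme genes, a threshold of 1.5-fold gave 8 higher and 4 lower at 10 μM, 20 higher and 6 lower at 100 μM, and 4 higher and 14 lower between doses. A 3-fold threshold gave 2 higher at 100 μM and 0 higher and 0 lower between doses. Without a filter on dim probes 10 were higher at 100 μM and 7 lower between doses. Genes lower at 100 μM numbered 4 with unscaled values, 4 with median and 2 with spike-in scaling. Between doses 0 were lower without scaling, under median or spike-in scaling and with normexp, and 1 under quantile normalization or with outlier spots kept. Genes higher between doses numbered 1 both with normexp and with the 75th percentile of all spots. The list's median at 100 μM was -0.05 under median and 0.07 under spike-in scaling, where the median of all genes was -0.20 and -0.09, and between doses it was 0.09 without scaling, 0.05 and 0.01, where that of all genes was 0.22, 0.17 and 0.13. The cause was not tested.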
